A study of Mus musculus with 6 samples.

Results

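The histone genes on a mouse whole-genome bead array were examined: the packaging proteins of chromatin, their replication-independent variants and a set of X-linked testis copies. Members were all probes whose platform symbol begins with H1f, H2ac, H2bc, H2al1, H2af, H3c, H3f or H4c, or with one of the older Hist1, Hist2 and Hist3 names. They came to 64 genes with 96 probes, out of 19057 genes with 1 symbol and 45281 probes in all. By the older names kept as RefSeq synonyms, 53 genes with 82 probes were replication-dependent cluster genes, 5 genes with 7 probes were replacement variants and 3 genes with 4 probes were H2al1 copies. The remaining 3 genes, H1f6, H2ac1 and H2bc1, lie in the clusters but are known for testis expression and had 1 probe each.

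The RNA came from AtT-20, a mouse corticotrope tumour line, in which an integrated transgene makes rat PAM-1, a peptide-amidating enzyme, when doxycycline is present. Clones 14, 6_1 and 6_2 were each grown for 48 h in control medium and in medium with doxycycline, giving 1 array per clone and medium and so 3 arrays against 3. All 6 cultures carried the transgene, and no drug-treated cells without it were analysed here, so an effect of the drug and an effect of PAM-1 cannot be told apart. It is not stated in the labels whether 6_1 and 6_2 arose independently, and any p-value reflects no more than how these cultures varied. The labels give the doxycycline dose as 4 µg/ml in one field and 4 mg/ml in another.

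DNA is wound around nucleosomes built from the core histones H2A, H2B, H3 and H4, and a linker histone, H1, sits where the DNA enters and leaves. Replication-dependent histone genes lie in clusters, are transcribed in S phase and make short intronless mRNAs that end in a stem-loop in place of a poly(A) tail, whereas mRNAs of replacement variants are polyadenylated and made throughout the cell cycle. H2al1 genes are near-identical X-linked copies of a short H2A variant that in mouse is made in spermatids, late in sperm development. Labelling here began from an oligo(dT) primer, per the labels' protocols, so the arrays read histone transcripts that such a primer can start on.

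Short strings upstream of the genes were counted by family, and 4 windows are shown because the results below turn on these genes. They are both H2al1 genes that passed the test, an H2A and H2B pair that share 1 upstream region, and the linker gene H1f2. Each window runs from 250 bases before to 50 bases after the RefSeq gene start on GRCm38.p6, plus strand, 5′ to 3′. Capitals mark matches on either strand to TATAAA (the TATA box), CCAAT, ATTTGCAT (the octamer) or AAACACA (an element described in H1 promoters); none of these overlap here. The windows are chrX:11311684-11311983 for H2al1e, chrX:9283514-9283813 for H2al1m, chr13:22035571-22035870 for H2bc12 and chr13:23738557-23738856 for H1f2.
H2al1e: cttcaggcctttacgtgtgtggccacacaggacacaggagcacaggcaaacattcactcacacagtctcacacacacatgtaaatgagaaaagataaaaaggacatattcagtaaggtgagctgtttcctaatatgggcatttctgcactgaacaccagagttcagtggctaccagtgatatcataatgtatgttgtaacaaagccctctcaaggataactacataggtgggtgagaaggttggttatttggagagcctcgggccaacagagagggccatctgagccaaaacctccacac
H2al1m: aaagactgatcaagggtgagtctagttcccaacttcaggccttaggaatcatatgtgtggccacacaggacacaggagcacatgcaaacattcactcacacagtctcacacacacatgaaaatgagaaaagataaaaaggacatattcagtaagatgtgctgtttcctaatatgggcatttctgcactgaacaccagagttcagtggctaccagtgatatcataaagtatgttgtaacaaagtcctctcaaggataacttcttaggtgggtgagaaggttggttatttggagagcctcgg
H2bc12: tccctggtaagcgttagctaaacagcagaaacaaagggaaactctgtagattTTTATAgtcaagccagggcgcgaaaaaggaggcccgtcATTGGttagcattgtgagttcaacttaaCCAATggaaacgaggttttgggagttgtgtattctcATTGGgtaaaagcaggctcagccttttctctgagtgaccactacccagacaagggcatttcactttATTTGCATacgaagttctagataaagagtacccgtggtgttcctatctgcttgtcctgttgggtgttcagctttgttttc
H1f2: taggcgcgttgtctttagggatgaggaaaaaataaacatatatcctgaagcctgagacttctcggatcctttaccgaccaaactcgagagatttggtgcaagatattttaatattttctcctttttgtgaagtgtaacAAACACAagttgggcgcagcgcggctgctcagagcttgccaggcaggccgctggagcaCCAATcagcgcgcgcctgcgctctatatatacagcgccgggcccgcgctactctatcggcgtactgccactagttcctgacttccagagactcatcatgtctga

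CCAAT stood in 15 of 15 H2A, 11 of 11 H2B, 7 of 7 H3 and 5 of 5 linker H1 windows, but in 3 of 11 H4 and 0 of 3 H2al1 windows, against 37.4% of all 32851 promoter windows. The octamer was found in 6 of 11 H2B and 5 of 15 H2A windows, against 1.74% of all windows. AAACACA was found in 4 of 5 linker H1 windows and 1 of 15 H2A windows, against 7.18%. TATAAA was found in 10 of 15 H2A, 5 of 11 H2B, 2 of 7 H3, 8 of 11 H4 and 4 of 5 linker H1 windows, against 13.6%. It was found in 1 of 5 replacement and 0 of 3 H2al1 windows. In the printed window of H2bc12 the octamer begins 30 bases before the start, and the start of H2ac12, transcribed the other way, lies 178 bases off. The H2al1 windows printed above hold none of these strings, which describes the letters in the windows only. RefSeq windows, 60 in all, were matched for 59 of the 64 genes, so these are counts of windows and not of genes. The windows are not independent. Those of the 3 H2al1 genes were 93.7% to 97.6% identical, so 0 of 3 there says little. Windows of H2A and H2B genes that lie head to head can cover the same bases, which are then counted for both.

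Of the 96 probes, 51 probes of 39 genes were above background (detection p under 0.01) on at least 3 of the 6 arrays and were tested. Another 40 were above background on no array and 5 on 1 or 2 arrays, which left 25 genes without a tested probe. The share tested differed by family: 17 of 22 H2A, 12 of 17 H2B, 8 of 18 H3, 3 of 19 H4 and 4 of 6 linker H1 probes. Among the tested probes, 2 passed the filter through the doxycycline arrays alone (1 of H2al1e and that of H2al1m) and 1, of H1f3, through the control arrays alone. The other H2al1e probe, above background on 1 control array, also needed its doxycycline arrays to pass. The genome span of the 34 replication-dependent genes with a tested probe had a median of 503 bases, and that of the 19 without had a median of 464. Only 3 of the former and 0 of the latter spanned over 1000 bases.

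Across all probes of the array, 16196 to 17149 were above background per array (35.8% to 37.9%), and among histone probes 45 to 49 were so on control arrays and 50 to 52 on doxycycline arrays. On the first principal component, the array of clone 6_1 in control medium lay at one end, at 56.5. The other 5 were themselves spread from -33.7 to 18.7, with clone 6_2 in control medium nearest to it. Precision is limited by how few arrays there were. Of 8 corticotrope markers, 6 were measured, with Pomc, the ACTH precursor, at 15.94 ± 0.05 and 16.02 ± 0.01 (log2 intensity, SD, n = 3) in control and doxycycline medium. Of the markers of other pituitary cells, 1 of 8 was measured (Gata2). Of 5 fibroblast markers none was above background on any array.

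With doxycycline, the 3 tested H2al1 probes rose in all 3 clones. Most H2A, H2B and H4 probes, and some H3 probes of lower intensity, read higher without passing the adjusted threshold. H3 probes of high intensity lay near 0, and the linker H1 probes read lower. Called below means adjusted p under 0.05 in limma's fit over 16902 probes with clone as a block. Called higher were 3 of 51 histone probes, all of H2al1, against 0.189% of all probes tested, and called lower were 0 of 51, against 0.124%. Of these 3, 2 entered the test only through the doxycycline arrays, where they are high. The third, above background on 1 control array, also needed its doxycycline arrays to pass the filter. That count is therefore not read against the background. At an unadjusted p under 0.05, 31 histone probes were higher and 3 lower, against backgrounds of 11.6% and 10.6%. On 25 histone probes every doxycycline array lay above every control array and on 1 below, against 12.1% and 12.5% of all probes. These counts include the probes kept through 1 medium alone. Of the 37 replication-dependent probes above background on all 6 arrays, 32 read higher, 24 of them at an unadjusted p under 0.05, as did 1701 of 14949 such probes over the whole array. The median log2 difference (doxycycline minus control) was 0.55 over the histone probes and -0.01 over all probes, whose 5th and 95th percentiles were -0.57 and 0.61.

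**Figure D1:**
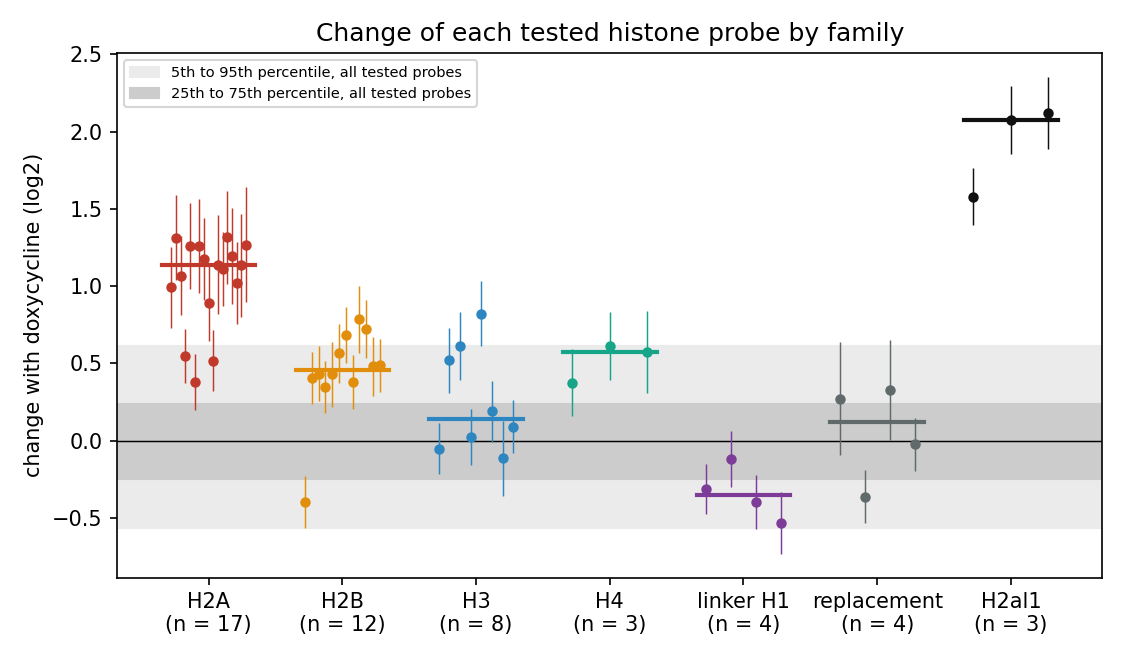
Log2 difference between doxycycline and control medium for each of the 51 tested histone probes, by family. Points are probes; the H2al1 probes lie highest, the 17 H2A probes all lie above 0 and the 4 linker H1 probes all lie below 0, 1 of them (H1f3) not above background with doxycycline.

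H2al1e, which is on the X chromosome at 11311934 to 11312427, rose on both of its probes. Probe ILMN_3047327 read 6.55, 5.56 and 5.49 (log2 intensity, clones 14, 6_1 and 6_2) in control medium, compared with 8.12, 8.19 and 7.52 under doxycycline. Its detection p passed on 1 of 3 arrays in control medium and on 3 of 3 with the drug. Without the doxycycline arrays it would not have been tested, so its p is no independent support. The log2 difference was 2.08 (SE 0.22, limma adjusted p = 0.0136), a size that rests on control values of clones 6_1 and 6_2 that were not above background.

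Probe ILMN_3122897 of the same gene read 5.27, 5.63 and 5.15 in control medium, above background on 0 of 3 arrays, and 8.08, 7.31 and 7.02 with doxycycline. Because the control arrays give only a bound, H2al1e was at least 2.78-fold higher by this probe under this normalization. The limma adjusted p of 0.0136 belongs to the full difference, which uses control values not above background, and the bound itself was not tested. The bound sets the doxycycline mean against the mean of the lowest level above background on the control arrays, or the probe's own level where higher. This probe was kept through the doxycycline arrays alone, so its p is no independent support, and no order of the clones is read from either probe.

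H2al1m, at 9283764 to 9284288 on the X chromosome, rose from 5.32, 4.88 and 4.97, above background on 0 of 3 control arrays, to 6.71, 6.83 and 6.38. It was at least 1.56-fold higher by the same kind of bound, and its limma adjusted p of 0.0162 again belongs to the full difference. It too was kept through the doxycycline arrays alone, which limits its p in the same way. H2al1n, the other copy on the array, read 5.16, 5.27 and 5.08 in control medium, compared with 6.52, 6.28 and 5.93 under doxycycline, was above background on 0 and 2 of 3 arrays and was not tested. Its doxycycline arrays also lay above its control arrays.

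The H2al1 copies are so alike that one transcript could give signal on several probes, and probe sequences were not used here, so the 4 probes are not 4 independent genes. Over 14 H2al1 copies with a RefSeq window, the 91 pairs of windows were 92.9% to 100% identical over 203 to 300 aligned columns, with a median of 97.5%. H2al1e and H2al1m were 93.7% identical over 268 columns, and H2al1e and H2al1n 97.6% over 296. Spermatid markers, the protamine and transition protein genes among them, were above background on 0 of 6 arrays for all 7 genes on the array. The testis-expressed cluster genes H1f6, H2ac1 and H2bc1 were also above background on 0 of 6 arrays.

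**Figure D2:**
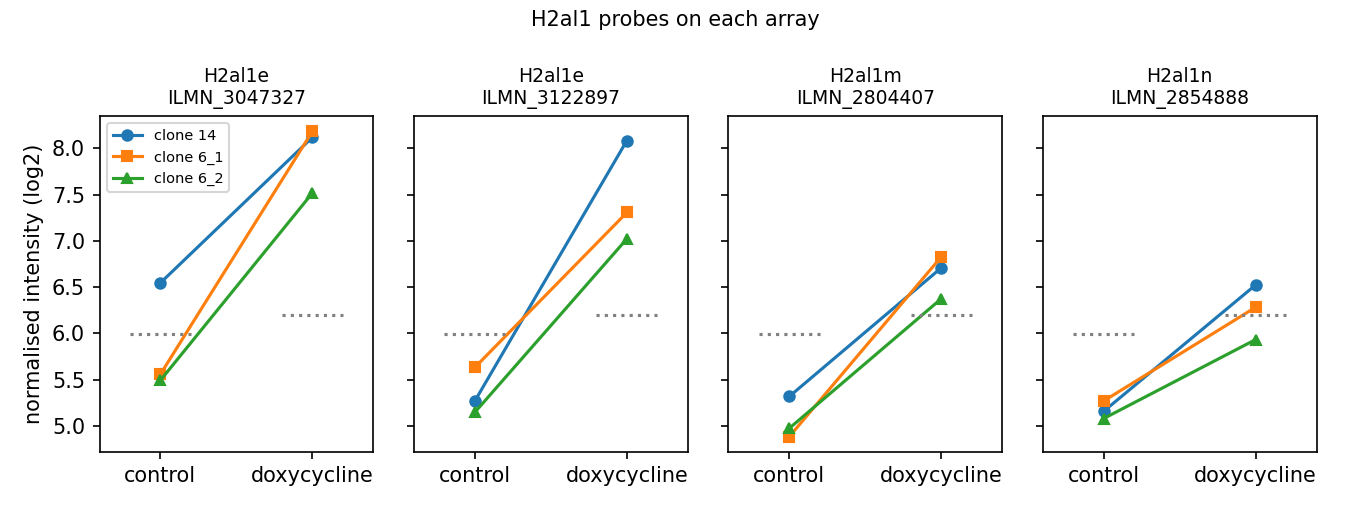
Log2 intensity of the H2al1 probes on each of the 6 arrays, control and doxycycline, joined within a clone; the dotted line is the mean lowest level above background in each medium. Every doxycycline value lies above every control value of the same probe.

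Among replication-dependent genes, the H2A family differed most, though 0 of its 17 probes were called by limma. Over 12 genes, 17 of 17 H2A probes read higher with doxycycline, 16 at an unadjusted p under 0.05, with a median log2 difference of 1.13 and a smallest adjusted p of 0.0877. The 16 at the unadjusted threshold are 94.1% of the H2A probes, against 11.6% of all probes. On 15 of 17 every doxycycline array lay above every control array, against 12.1% of all probes. The probes of such similar genes may share transcripts and are not independent. In bulk RNA, a larger share of cells with the transcript and more transcript per cell cannot be told apart.

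H2ac21, an H2A gene of the small cluster on chromosome 3, had the largest difference of this class. Its control arrays read 7.89, 7.30 and 7.54 and its doxycycline arrays 8.39, 9.61 and 8.68, a log2 difference of 1.32 (SE 0.30, limma adjusted p = 0.0952). The clones were ordered with 6_1 highest and 14 lowest under doxycycline, and the groups did not overlap.

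H2ac10, on chromosome 13, read 11.88, 11.47 and 11.49 in control medium, compared with 12.45, 13.66 and 12.68 under doxycycline on probe ILMN_1219574 (log2 difference 1.31, SE 0.28, limma adjusted p = 0.0877). Its other probe went from 13.59, 12.96 and 13.21 to 13.88, 14.58 and 13.96, a difference of 0.89 with an adjusted p of 0.115. On each probe the doxycycline array of clone 6_1 was the highest of the 6.

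H2ac13 read 11.75, 11.46 and 11.34 against 12.31, 13.63 and 12.39 on probe ILMN_1238276 (log2 difference 1.26, limma adjusted p = 0.0887). Its other probe read 13.08, 12.62 and 12.78 against 13.61, 14.41 and 13.79 (1.11, adjusted p = 0.0878). Neither probe's groups overlapped, and the same holds for H2ac12, whose probe ILMN_1246108 read 10.95, 10.34 and 10.48 against 11.38, 12.63 and 11.53 (1.26, adjusted p = 0.0964). H2ac11 read 7.94, 7.03 and 7.85 against 8.20, 9.65 and 8.77, a difference of 1.27 with an adjusted p of 0.122. H2ac7 differed by 1.20 and 1.07 on its probes. The clone 6_1 gap was the widest for each of these genes.

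The H2A genes with the highest intensities differed by similar amounts. H2ac24 read 13.43, 13.16 and 13.42 in control medium, compared with 13.90, 15.06 and 14.10 under doxycycline (log2 difference 1.02, limma adjusted p = 0.105). H2ac20 read 13.57, 13.09 and 13.16 against 13.88, 14.90 and 14.01 on its brighter probe (0.99, adjusted p = 0.108). The other H2ac20 probe, with a mean level of 6.44, differed by 0.52 (adjusted p = 0.179), and its groups overlapped. H2ac18 and H2ac19, a neighbouring pair on chromosome 3, differed by 0.55 and 0.38.

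The H2A difference was largest in clone 6_1. Clone 14 had a median difference of 0.43, against 1.98 for 6_1 and 0.92 for 6_2, with 6_1 the widest on 17 of 17 probes and 14 the narrowest on 15. Over all 16902 probes, 6_1 had the highest signed difference on 7080 and 14 the lowest on 5236. Median H2A levels were 11.54, 10.99 and 11.25 on the control arrays and 11.73, 13.27 and 12.10 on the doxycycline arrays, so clone 6_1 was both the lowest control and the highest doxycycline culture. Its control array was the lowest of 6 on 16 of 17 probes and its doxycycline array the highest on 16 of 17, against 5246 and 2669 of the 16902 probes. That control array is also the one at the end of the first principal component. Whether this shapes the H2A values was not tested.

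Without clone 6_1 the median H2A difference was 0.59, all 17 probes stayed higher and 15 had an unadjusted p under 0.05, against 11.4% of all probes, with 0 called by limma. Without clone 14, 14 of 17 H2A probes were called higher, against 2.83% of all probes in that fit, and without clone 6_2, 13 of 17 were, against 1.38%. In these last fits limma gave every probe the same spread, since the prior degrees of freedom were infinite.

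**Figure D3:**
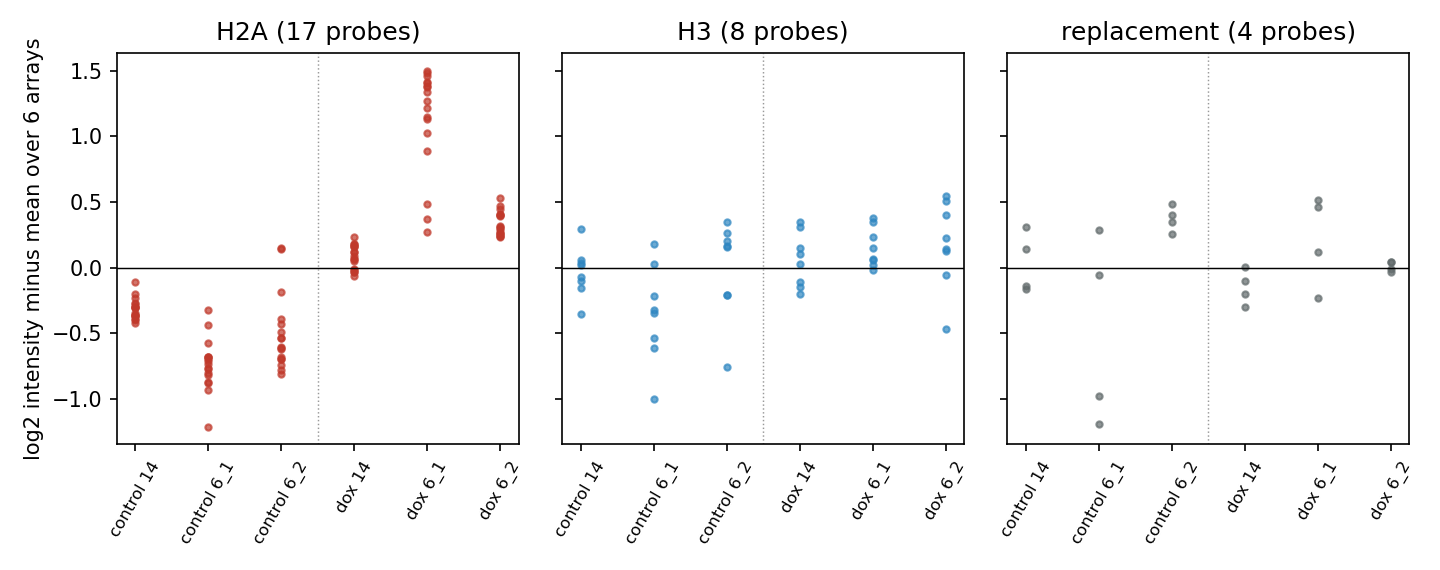
Deviation of each probe's log2 intensity from its own mean over 6 arrays, for H2A, H3 and replacement variant probes. H2A points lie below 0 on the control arrays of clones 14 and 6_1 and reach their highest on the doxycycline array of clone 6_1. H3 and replacement points lie on both sides of 0 in both media.

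H2B, the partner of H2A in the nucleosome, read higher on 11 of 12 probes, with a median log2 difference of 0.46 and 0 called by limma. At an unadjusted p under 0.05, 8 probes were higher and 1 lower, against 11.6% and 10.6% of all probes. H2bc9 went from 7.04, 6.93 and 7.34 in control medium to 7.43, 8.30 and 7.93, a difference of 0.79 (adjusted p = 0.114). H2bc7 went from 7.56, 7.44 and 8.10 to 8.13, 8.54 and 8.60 (0.72, adjusted p = 0.103). The exception was a probe of H2bc21 at -0.40, whose other probe stood at 0.35. H2bc21 is among the 3 replication-dependent genes whose RefSeq span exceeds 1000 bases.

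Because many H2A and H2B genes lie head to head, pairs were compared. Such pairs numbered 9, with starts 164 to 281 bases apart, and 4 pairs had both members tested. The H2A member had the larger log2 difference in 4 of 4: H2ac15 1.13 and H2bc15 0.43, H2ac12 1.14 and H2bc12 0.38, H2ac11 1.27 and H2bc11 0.68, and H2ac7 1.07 and H2bc7 0.72. It was larger in every clone for 2 of the 4 pairs. The H2A member was also the brighter in 4 of 4. In the order above, mean levels were 11.77, 11.79, 8.24 and 13.23 for H2A and 6.74, 7.21, 7.76 and 8.06 for H2B. The gaps in difference were not tested, nor was any part that level plays in them.

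H3 and H4 pair with each other at the centre of the nucleosome. Of 8 H3 probes, 6 read higher, with a median of 0.14. At an unadjusted p under 0.05, 3 were higher, those of H3c1, H3c4 and H3c7, against 11.6% of all probes. H3c4, above background on all 6 arrays, differed by 0.52. H3c7 differed by 0.61, partly from values not above background. H3c10 read 11.68, 11.86 and 12.04 in control medium, compared with 11.63, 11.81 and 11.98 under doxycycline, a log2 difference of -0.05 with a 95% interval of -0.42 to 0.32. H3c13 stood at 0.02 (-0.38 to 0.43) and H3c14 at 0.09 (-0.29 to 0.48), so the H2A median of 1.13 lay outside each interval, though the smallest H2A difference, 0.38 for H2ac19, lay inside the last 2.

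H3c1, of lower intensity, read 5.99, 5.39 and 5.18 against 6.28, 6.31 and 6.44, above background on 1 and 3 of 3 arrays. Its log2 difference of 0.82 (limma adjusted p = 0.103) rests partly on control values not above background. The H3c1 probe, too, needed its doxycycline arrays to pass the filter. Without clone 6_1, 3 of the 8 H3 probes read higher. H4 had 3 tested probes, all higher, with a median of 0.57. H4c8 was above background on 0 control and 2 doxycycline arrays and H4c12 on 0 and 1, and neither was tested.

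Linker H1 probes read lower. H1f2, a somatic linker histone gene on chromosome 13, read 10.54, 11.46 and 11.84 in control medium, compared with 10.17, 11.27 and 11.22 under doxycycline on probe ILMN_2774537 (log2 difference -0.40, limma adjusted p = 0.222). Its other probe read 9.92, 10.44 and 11.16 against 9.16, 10.40 and 10.37 (-0.53, adjusted p = 0.177). Each clone read lower with doxycycline on both probes, and the ranges overlapped, with clone 14 the lowest in both media.

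H1f3 was above background on 3 control and 0 doxycycline arrays and was kept through the control arrays alone, so no size is given for it. H1f5 stood at -0.12, and its clones 14, 6_1 and 6_2 differed by 0.21, -0.36 and -0.21. Over the 3 linker probes above background on all 6 arrays the median log2 difference was -0.40, with 0 called. At an unadjusted p under 0.05, 2 of them, both of H1f2, were lower, as were 1467 of 14949 such probes over the whole array.

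**Figure D4:**
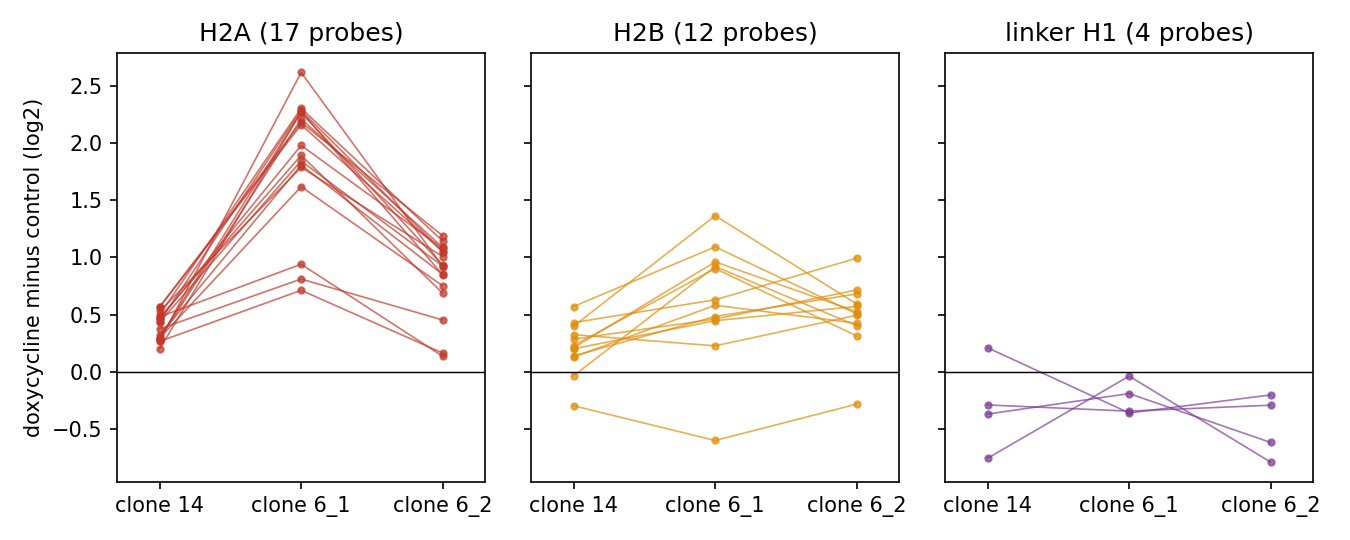
Log2 difference (doxycycline minus control) of the tested H2A, H2B and linker H1 probes in each clone, by family. The H2A family has its widest differences in clone 6_1 and its narrowest in clone 14.

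The replacement variants showed no call. H3f3b, which encodes the H3.3 protein, read 14.29, 14.72 and 14.83 in control medium, compared with 14.13, 14.20 and 14.42 under doxycycline (log2 difference -0.36, SE 0.17, limma adjusted p = 0.246). H3f3a, the second H3.3 gene, read 12.97, 13.07 and 13.39 against 12.93, 13.25 and 13.18, a difference of -0.02 with a 95% interval of -0.41 to 0.36. Its other probe was above background on no array.

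H1f10, a replication-independent linker variant, read 9.36, 7.86 and 9.54 against 8.95, 9.52 and 9.10 on probe ILMN_1247646 (log2 difference 0.27, limma adjusted p = 0.68). Its other probe went from 10.19, 9.07 and 10.39 to 10.05, 10.56 and 10.01 (0.33, adjusted p = 0.563). On the first probe, clone 6_1 gained 1.65 where the other clones stood at -0.41 and -0.43. Its low control value is again from the array at the end of the first principal component. Without clone 6_1 the median of the 4 replacement probes was -0.27, from 0.12 with it. The germline linker variants H1f7 and H1f8 were above background on no array. Genes of other replacement variants, whose current symbols the choice of names leaves out and which were added after the annotation was seen, also gave no call: H2az2 stood at 0.39, H2az1 at 0.23 and H2ax at 0.04. Cenpa, the centromeric variant, stood at 0.22 with no call.

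Probes of the same gene were compared as a check on the family results. Of 24 genes with several probes, 12 had at least 2 tested, 10 of which had the same sign and 9 of which lay within 0.3 (log2). H2bc21 and H3c14 had opposite signs, and the probes of H2ac10 and H2ac20, of the same sign, lay 0.43 and 0.47 apart. For 6 genes, H3c10, H3c4 and H3f3a among them, 1 probe was tested and another was not above background often enough, so a missing signal on a single probe does not show that the gene is silent.

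Contrasts between clones average over both media. In them 0 histone probes were called, against 0.136% of all probes for 6_1 and 14, 0.142% for 6_2 and 14 and 0% for 6_2 and 6_1. H1f2 had the largest gaps: its probes were 0.88 and 1.01 higher in clone 6_1 than in clone 14 and 1.22 and 1.17 higher in clone 6_2 (log2, limma adjusted p from 0.10 to 0.16). H3c7 stood at -0.77 in 6_1 against 14 (adjusted p = 0.234), and H2al1e at -0.83 in 6_2 against 14 on probe ILMN_3047327 (adjusted p = 0.301), both with some arrays not above background. Between 6_2 and 6_1 the largest gaps were -0.68 for H2ac13 on probe ILMN_1238276, 0.64 for H3c7 and 0.63 for H1f10 on probe ILMN_1247646, each with an adjusted p of 0.998. The H1f10 gap reversed between media: 6_2 and 6_1 read 9.54 and 7.86 in control medium, but 9.10 and 9.52 with doxycycline. The H2ac13 gap lay mostly in doxycycline medium, at 12.39 and 13.63, against 11.34 and 11.46 in control medium. That of H3c7 had the same sign in both media.

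Genes that serve histone supply gave no call, and each was counted by its tested probe of highest intensity. Of 11 measured genes for histone mRNA processing, 5 read higher and 6 lower with 0 called and a median of -0.19. Lsm10, a U7 snRNP component for cutting the stem-loop end, went from 11.07, 9.96 and 10.44 to 11.32, 11.16 and 11.04, a log2 difference of 0.69 (limma adjusted p = 0.131), and Upf1, which acts in histone mRNA decay, differed by 0.37 (adjusted p = 0.236). Slbp, the stem-loop binding protein gene, was not above background on any array.

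Of 22 histone chaperone and exchange genes, 8 read higher and 14 lower, with 0 called. Nap1l1, a chaperone for H2A and H2B, stood at -0.61 (limma adjusted p = 0.122) on 1 probe, -0.74 on another and 0.46 on the third. Atrx, which helps deposit H3.3, stood at -0.81 (adjusted p = 0.184) on its brightest probe and at -1.25 (adjusted p = 0.0878) on another. Of 21 S phase genes, 11 read higher and 10 lower, with a median of 0.04 and 0 called. Gins2 and Ung both stood at 0.64 (limma adjusted p = 0.142 and 0.144), though the other tested Ung probe stood at 0.00. Some probes left out of the counts had smaller p. A Mcm6 probe stood at -0.65 (adjusted p = 0.124), beside -0.50 on its brightest, and a Zfp473 probe at -0.47 (adjusted p = 0.178). A Tyms probe read lower but was kept through the control arrays alone, and the brightest Tyms probe stood at 0.30. At an unadjusted p under 0.05, the counted probes of the 3 lists held 1 higher and 0 lower, 0 and 3, and 2 and 1, against 11.6% and 10.6% of all probes.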

How the data were processed

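RNA of 6 cultures was hybridised to Illumina MouseWG-6 v2.0 arrays. One deposited table gives scanner intensity on a linear scale for each probe and array, per the file headers, and a deposited detection p-value beside each, matched by place and checked against the order of intensities within arrays. A second deposited table holds the authors' processed intensity values, linear, with array medians of 134.1 to 134.2; how they were normalized is not given in the sources. The submitters' processing notes name GenomeStudio and BeadStudio without versions.

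The intensities were background-corrected, quantile-normalized and put on a log2 scale with neqc (offset 16) in limma 3.58.1 under R 4.3.3; these log2 values were computed here and not by the authors. Probes with detection p under 0.01 on 3 of 6 arrays were kept. limma's lmFit and eBayes were fitted with clone as a block, since the labels put every clone in both media, and p-values were adjusted by Benjamini-Hochberg over all 16902 kept probes. Deviations from the group means correlated at 0.538, -0.0211 and 0.139 between media for clones 14, 6_1 and 6_2. Alternatives were no block, no filter, a looser filter, median scaling, cyclic loess, no background correction, the authors' values and leaving out each clone. Residual degrees of freedom were 2 and prior degrees 6.95.

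Platform annotation gave 1 symbol for 34885 probes, several for 18 and none for 10378. All 96 histone probes matched RefSeq by Entrez ID with the same symbol (GRCm38.p6). Classes follow older synonyms, since the platform names are current ones. Windows were aligned locally with Biopython 1.88. Probes named are all tested H2al1 and replacement probes, any called, the 6 of largest difference and 4 of highest intensity among replication-dependent ones, the 3 of largest difference per clone contrast, and the 2 genes of smallest p per related list. Each listed gene was represented there by its tested probe of highest intensity. Others named (H2bc7, H2bc9, H3c1, H3c4, H3c10, H3c13, H3c14, H2ac18, H2ac19, H1f3, H1f5, Mcm6, Tyms and Zfp473, with those of the pairs and further probes of named genes) were chosen after their values were seen. Members and lists were chosen with earlier results of these data known. Columns of other series numbered 0.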

Additional observations from a re-analysis of the deposited data

How the results depend on the processing

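With doxycycline, 3 histone probes were called in the fit as reported. The number was 0 without the intensity filter, which tests more probes, 6 with median scaling, 1 without background correction, and 3 to 21 when a clone was left out (21 without clone 14, 3 without 6_1 and 16 without 6_2). The 3 extra probes under median scaling were H2ac10 and both of H2ac13. Over all probes the count went from 53 to 33 with no replicate block (3 histone probes without that pairing), 1 without the filter, 165 with median scaling and 78 to 717 leaving out a clone; the split was 32 higher and 21 lower, and 75 and 90 with median scaling. Between clones 6_1 and 14 the count went from 23 to 6 without the filter and 206 with median scaling, and between 6_2 and 14 from 24 to 5 and 82. The median H2al1 difference of 2.08 was 1.83 without the filter or at detection p under 0.05, 1.00 without background correction, 1.03 on the authors' values and 1.78 to 2.10 leaving out a clone. H2al1 probes missed the threshold without the filter (adjusted p = 0.22 for all 3), without background correction (ILMN_3122897 and H2al1m, 0.0552 and 0.0704) and, for H2al1m, on the authors' values (0.067). The median replication-dependent difference of 0.56 was 0.22 without the filter, which adds probes near background, and 0.41 to 0.76 leaving out a clone. No called probe changed sign, while among others H1f10 without clone 6_1 and H3f3a with median scaling or without clone 6_2, never called, did. Family counts moved as well when a clone was left out. Without clone 6_1, 1 of 4 linker H1 probes read higher, from 0, and 3 of 8 H3 probes, from 6. Without clone 6_2, 7 of 8 H3 probes read higher. All 17 H2A probes stayed higher under every scaling, and the linker probes lower; 2 of 4 replacement probes read higher, or 3 with median scaling. Apart from the constructions named, the cause of these shifts was not tested. Low signal over background limits H4 most, with 3 of 19 probes tested.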
